A study of Sus scrofa with 24 samples.

Results

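The genes described here encode the collagens, laminins and other proteins of the muscle's extracellular matrix, the enzymes that build and cut them, and the integrins through which cells hold on to them. They were chosen by name: probe sets of the array with exactly 1 gene symbol, where that symbol starts with COL and a digit, LAMA, LAMB, LAMC, FBLN, MMP, TIMP, ADAMTS, LOX, P4HA, PLOD, ITGA or ITGB, or is FN1, SPARC, LUM, BGN, FMOD or SERPINH1. The rule leaves out 1 symbol that these prefixes would take in, which is not analysed here, and symbols starting with LOC. Where a gene had several probe sets, the one with the highest mean signal stood for it. This gave 57 of the 6765 genes that the array names by 1 symbol, and 40 of the 57 were bright enough to be tested. The rule goes by prefix, so it also took in ITGB1BP2 (melusin), a muscle protein that binds an integrin and is not one itself.

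The samples were longissimus dorsi muscle, the long muscle of the loin, from 24 crossbred pigs (Landrace × Large White × Duroc). All pigs ate feed with 3.0% added fat, either beef tallow or 1 of 3 plant oils (coconut, olive and soybean), so each diet is compared with another fat and none with a diet lacking added fat. The pigs weighed about 71 kg at about 130 days of age when they were allotted. Each fat was given to 3 sampled gilts (young females) and 3 sampled barrows (castrated males), which makes 8 groups of 3 and 6 pigs per fat. Pigs were housed in pens, and the pen of each sampled pig was not given, so pigs that shared a pen could not be told from pigs that did not.

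Collagens of the fibrillar kind form the tensile fibres between muscle fibres, and laminins and the basement membrane collagens form the sheet that wraps each muscle fibre. Collagen VI links that sheet to the fibres around it. Lysyl hydroxylases, prolyl hydroxylases and the chaperone SERPINH1 act on collagen inside the cell, and lysyl oxidases cross-link it outside. Metalloproteinases degrade the matrix, TIMPs inhibit them, and integrins tie the cytoskeleton to laminin, fibronectin and collagen. In muscle most of these transcripts come from fibroblasts and other cells between the fibres, and some from the fibres, the vessels and the fat cells. The RNA came from whole tissue, in which fewer cells of a type and less RNA per cell cannot be told apart.

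All arrays had been scaled to nearly the same level, with trimmed means from 499.8 to 499.9, while their median signals ran from 139.1 to 174.4. The medians were lower on coconut oil, from 139.1 to 157.9, than on beef tallow, from 153.2 to 174.4. In barrows they did not overlap, at 139.1 to 148.8 on coconut oil and 162.4 to 174.4 on beef tallow. Of 12 listed marker genes of muscle fibres, the 9 found on the array (such as CKM, MYH7 and TTN) were all bright enough to test, and their summed signal ran from 224703 to 396792 over the 24 pigs. The 3 arrays that correlated least with the others were those of pig 12 (a gilt on olive oil), pig 11 (a gilt on soybean oil) and pig 16 (a barrow on beef tallow). Pig 12 had the lowest summed signal of muscle fibre markers of all 24 pigs. It also had the highest summed signals of adipocyte, endothelial, leukocyte and smooth muscle markers, at 48163, 12050, 13113 and 46294.

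The clearest contrast among the matrix genes was between coconut oil and beef tallow. In pigs fed coconut oil, laminin β1 (LAMB1), fibronectin (FN1) and the α2 chain of collagen VI (COL6A2) fell by 0.69, 0.83 and 0.76 on the log2 scale against pigs fed beef tallow. These are log2 differences of signal + 1, and they amount to 1.61-fold, 1.78-fold and 1.70-fold. No tested member rose. The 3 members called, out of 40, compare with 0.861% of all 14399 tested probe sets called lower in this comparison at an adjusted p under 0.05 (limma, Benjamini-Hochberg over all tested probe sets).

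The rest of the tested members lay mostly on the same side of zero without passing that threshold. The difference was negative in 38 of 40 members, against 55.4% of all tested probe sets. Before adjustment, 19 of 40 members were lower at a p under 0.05, against 13.2% of all tested probe sets, and 0 of 40 were higher, against 6.6%. The median difference was -0.42 over the 40 members and -0.04 over all tested probe sets. In 25 of the 40 members every one of the 6 coconut oil pigs lay below the mean of the beef tallow pigs. The matching share over all tested probe sets was not computed, so this count is a description only. For 3 members, COL5A2, FN1 and LOXL1, all 6 coconut oil pigs lay below all 6 beef tallow pigs, which held for 1.28% of all tested probe sets.

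These calls are close to their threshold. With each array centred on its own median, which moves the median of all probe sets by 0.13, no member was called in limma's fit, 33 of 40 differences were negative and 15 members were at an unadjusted p under 0.05. The matching shares of all probe sets after centring are not given here. The shares in the paragraphs above apply to the deposited scaling only. Leaving out 1 pig at a time gave between 0 and 8 called members. The number was 0 without any one of pigs 1, 6, 8, 10, 13, 15, 16, 18, 20, 21 or 23. It was 1 without any one of pigs 3, 4, 5, 14, 17 or 22, and 2 (COL6A2 and LAMB1) without any one of pigs 9, 11 or 19. It was 5 without pig 7, 6 without pig 2 or pig 24, and 8 without pig 12.

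**Figure D1:**
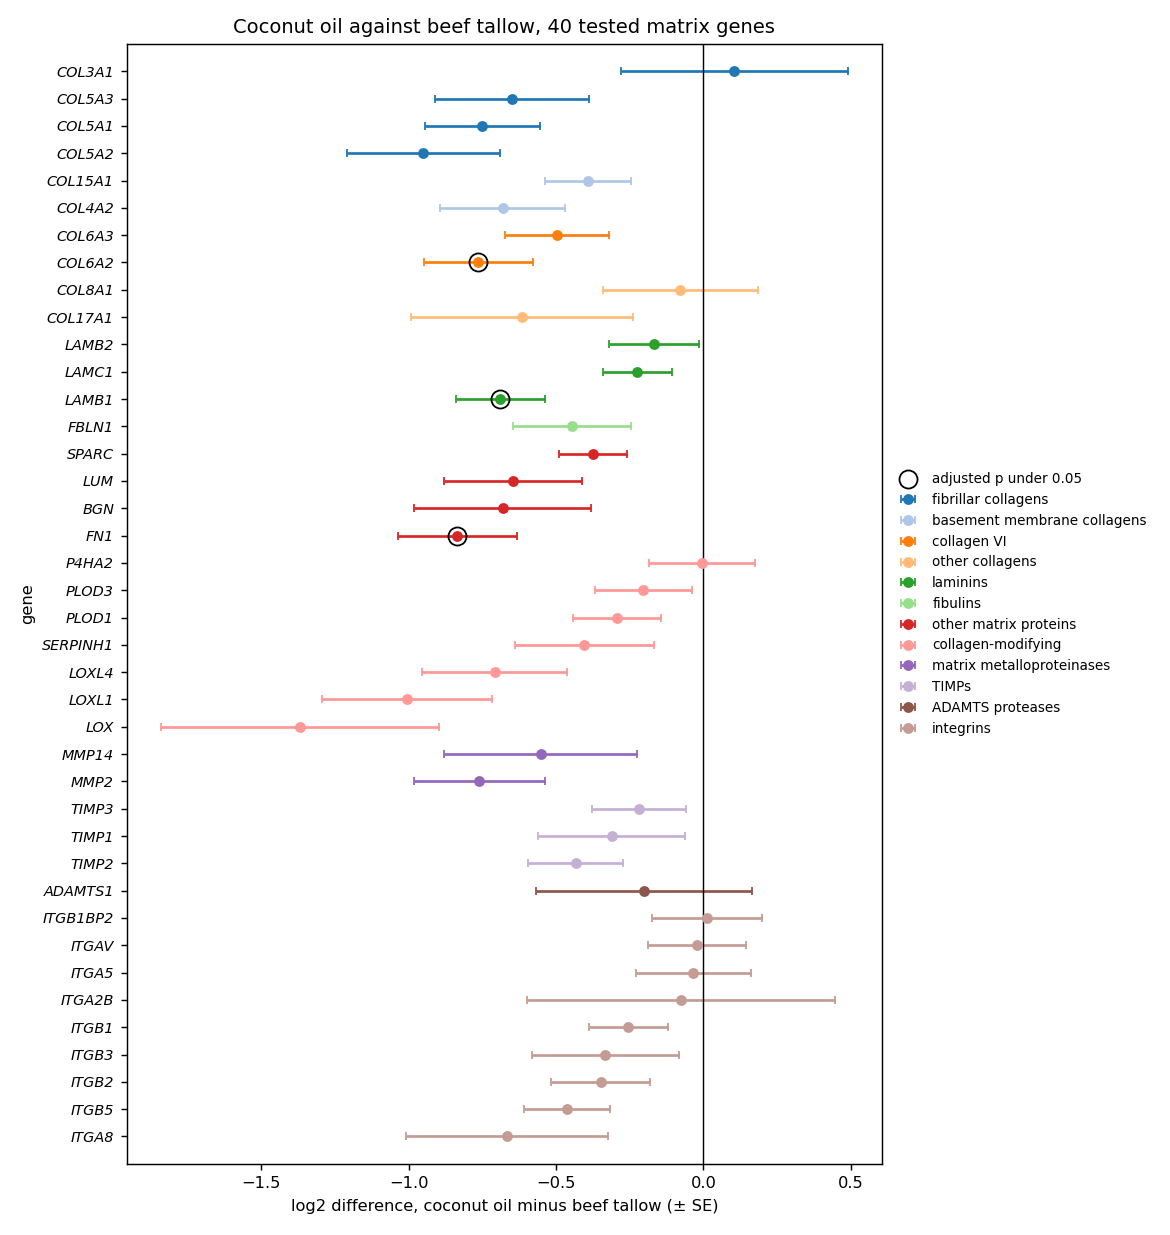
Log2 difference of signal between coconut oil and beef tallow (x axis, negative where coconut oil was lower) for the 40 tested members (y axis), with bars of 1 standard error, coloured by family. The 3 circled genes (COL6A2, LAMB1 and FN1) passed an adjusted p of 0.05, and 38 of the 40 points lie left of zero.

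Among the fibrillar collagens, the 3 type V chains had lower means on coconut oil, and none was called. COL5A1 and COL5A2 encode the main chains of collagen V, which sits inside type I fibrils and sets their width. COL5A1 signal was 1179, 1292 and 1660 (lowest, median and highest of 6 pigs) on coconut oil and 1259, 2312 and 3166 on beef tallow. The groups overlapped through pig 2, the beef tallow gilt at 1259. The difference of -0.75 ± 0.20 (SE) had an adjusted p of 0.058. A second, dimmer COL5A1 probe set (mean signal 887.2) gave -0.17 (adjusted p = 0.66). COL5A2 signal was 97.4, 149.1 and 199.8 on coconut oil and 226.4, 265.1 and 424.2 on beef tallow. These groups did not overlap, and the difference of -0.95 ± 0.26 had an adjusted p of 0.065. The third chain, COL5A3, differed by -0.65 ± 0.26 (adjusted p = 0.17). COL3A1, the collagen of fine reticular fibres, stood apart from them. It was read by 1 probe set, with a mean signal of 264.2, against 1819.6 for COL5A1 and 200.6 for COL5A2. How well this probe set reports COL3A1 was not tested. Its signal was 162, 200.6 and 471.5 on coconut oil and 94.4, 215.2 and 518.2 on beef tallow, so that the coconut oil pigs lay within the range of the beef tallow pigs, and its difference was 0.11 ± 0.38 (adjusted p = 0.90).

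Both measured chains of collagen VI, the beaded filament that links the basement membrane to the surrounding fibres, were lower on coconut oil, one of them past the threshold. COL6A2 signal was 746.4, 955.7 and 1173 on coconut oil and 1124, 1604 and 2366 on beef tallow. Only pig 24, the beef tallow barrow at 1124, reached down into the coconut oil range, and the fall of 0.76 ± 0.19 had an adjusted p of 0.048. COL6A3 signal was 4527, 5696 and 6815 on coconut oil and 5891, 7841 and 10753 on beef tallow. The ranges overlapped, and the difference was -0.50 ± 0.18 (adjusted p = 0.13).

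The basement membrane collagens pointed the same way without being called. COL4A2, a chain of the collagen IV network, gave 1867, 2812 and 4205 on coconut oil and 3291, 4516 and 5411 on beef tallow. The 2 groups overlapped between 3291 and 4205, with a difference of -0.68 ± 0.21 (adjusted p = 0.088). COL15A1, a collagen that anchors basement membranes, differed by -0.39 ± 0.15 (adjusted p = 0.14). Of the remaining collagens, COL17A1, a transmembrane collagen best known from skin, differed by -0.62 ± 0.38, and COL8A1, a short-chain collagen of vessel walls, by -0.08 ± 0.26.

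Of the 3 laminin chains measured, LAMB1 was the one called. LAMB1 signal was 962.6, 1218 and 1498 on coconut oil and 1443, 1928 and 2429 on beef tallow. Just pig 5 (a coconut oil gilt at 1498) and pig 2 (a beef tallow gilt at 1443) crossed. The fall of 0.69 ± 0.15 had an adjusted p of 0.041, and was past the threshold in 13 of the 24 fits that left out 1 pig. A second, dimmer LAMB1 probe set gave -0.28 with an adjusted p of 0.44, so the call rests on the brighter probe set. LAMB2, a β chain found at the synapse, differed by -0.17 ± 0.15, and LAMC1, the γ chain that most laminins share, by -0.22 ± 0.12. The further LAMC1 probe sets gave -0.16, -0.13 and -0.10.

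The matrix glycoproteins and proteoglycans were led by fibronectin, which cells assemble into fibrils and which integrins bind. FN1 signal was 5290, 6029 and 6851 on coconut oil and 7849, 10161 and 16952 on beef tallow. The ranges did not touch, and the coconut oil pigs were the tighter group, with an SD of 0.13 against 0.44 on the log2 scale. The fall of 0.83 ± 0.20 had an adjusted p of 0.048, and was past the threshold in 4 of the 24 fits that left out 1 pig.

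SPARC, a collagen-binding glycoprotein that regulates fibril assembly, gave 21693, 24333 and 26008 on coconut oil and 23541, 31864 and 36667 on beef tallow. The ranges overlapped at their ends, and the difference of -0.38 ± 0.12 had an adjusted p of 0.085. Lumican (LUM), a small proteoglycan on collagen fibrils, gave 2496, 3046 and 3981 on coconut oil and 3074, 5342 and 5597 on beef tallow. Here again pig 2 was the low beef tallow pig, and the difference was -0.64 ± 0.23 (adjusted p = 0.13). Biglycan (BGN), a related proteoglycan, differed by -0.68 ± 0.30 (adjusted p = 0.21). Fibulin 1 (FBLN1), which binds fibronectin and elastic fibres, differed by -0.45 ± 0.20 (adjusted p = 0.22).

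Of the 7 genes that modify or fold collagen none was called, and the 3 cross-linking lysyl oxidases gave the differences farthest from zero, from -1.37 to -0.71. LOXL1 signal, from a lysyl oxidase tied to elastic fibres, was 90.9, 168.4 and 204.4 on coconut oil and 251.2, 296.4 and 499.4 on beef tallow. The groups did not overlap, and the difference was -1.01 ± 0.29 (adjusted p = 0.073). LOX signal was 85.0, 168.2 and 301.2 on coconut oil and 117.7, 355.4 and 1481 on beef tallow. The beef tallow pigs were widely spread, from pig 24 at 117.7 to pigs 21 and 16 at 1051 and 1481, all of them barrows. The LOX difference of -1.37 ± 0.47 was the largest in size among the 40 members and had an adjusted p of 0.12; without pig 24 it was -1.93. LOXL4 signal was 89.9, 163.5 and 248.5 on coconut oil and 182.1, 237 and 412.1 on beef tallow, overlapping, with a difference of -0.71 ± 0.25 (adjusted p = 0.12).

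The genes that act inside the cell came next. SERPINH1 (HSP47), the chaperone that folds procollagen, gave 1062, 1745 and 2120 on coconut oil and 1440, 2279 and 3238 on beef tallow, an overlapping pair of ranges with a difference of -0.40 ± 0.24 (adjusted p = 0.35). The lysyl hydroxylases PLOD1 and PLOD3 differed by -0.29 ± 0.15 and -0.20 ± 0.16. The prolyl hydroxylase subunit P4HA2 differed by -0.01 ± 0.18, and its second probe set by 0.18.

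The tested proteases and their inhibitors were lower on coconut oil as well, without a call. MMP2, the gelatinase that stromal cells make, gave 1569, 2089 and 2616 on coconut oil and 1890, 3745 and 4630 on beef tallow. Pig 2 was again the lowest beef tallow pig and the one inside the coconut oil range, and the difference was -0.76 ± 0.22 (adjusted p = 0.077). MMP14, the membrane-bound protease that activates MMP2, differed by -0.55 ± 0.33 (adjusted p = 0.36), and ADAMTS1, which cuts proteoglycans, by -0.20 ± 0.37 (adjusted p = 0.80). TIMP2, an inhibitor that also takes part in activating MMP2, gave 1239, 1667 and 1837 on coconut oil and 1617, 1942 and 3316 on beef tallow. The ranges overlapped, with a difference of -0.43 ± 0.16 (adjusted p = 0.14), and a second TIMP2 probe set gave -0.05. TIMP1 gave 578.4, 737.4 and 1338 on coconut oil and 729.2, 1004 and 1168 on beef tallow, with both the lowest and the highest pig on coconut oil and a difference of -0.31 ± 0.25. TIMP3, the TIMP that binds to the matrix, differed by -0.22 ± 0.16.

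The 9 tested integrin genes, melusin included, had a median difference of -0.25 and none was called. ITGB5, which pairs with αV, gave 543.5, 646.2 and 742.2 on coconut oil and 722, 920.8 and 1091 on beef tallow. The ranges crossed between 722 and 742.2, and the difference was -0.46 ± 0.15 (adjusted p = 0.092). ITGB1, the β subunit of most matrix receptors of muscle, differed by -0.25 ± 0.13, ITGA8, a fibronectin receptor subunit, by -0.67 ± 0.34 and the leukocyte subunit ITGB2 by -0.35 ± 0.17. ITGB3, ITGA2B, ITGA5 and ITGAV gave -0.33, -0.08, -0.03 and -0.02. Melusin gave 0.01 ± 0.19. The sign of the differences near zero (ITGAV, ITGA5, ITGA2B, COL8A1, P4HA2 and melusin) depended on how the arrays were scaled.

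**Figure D2:**
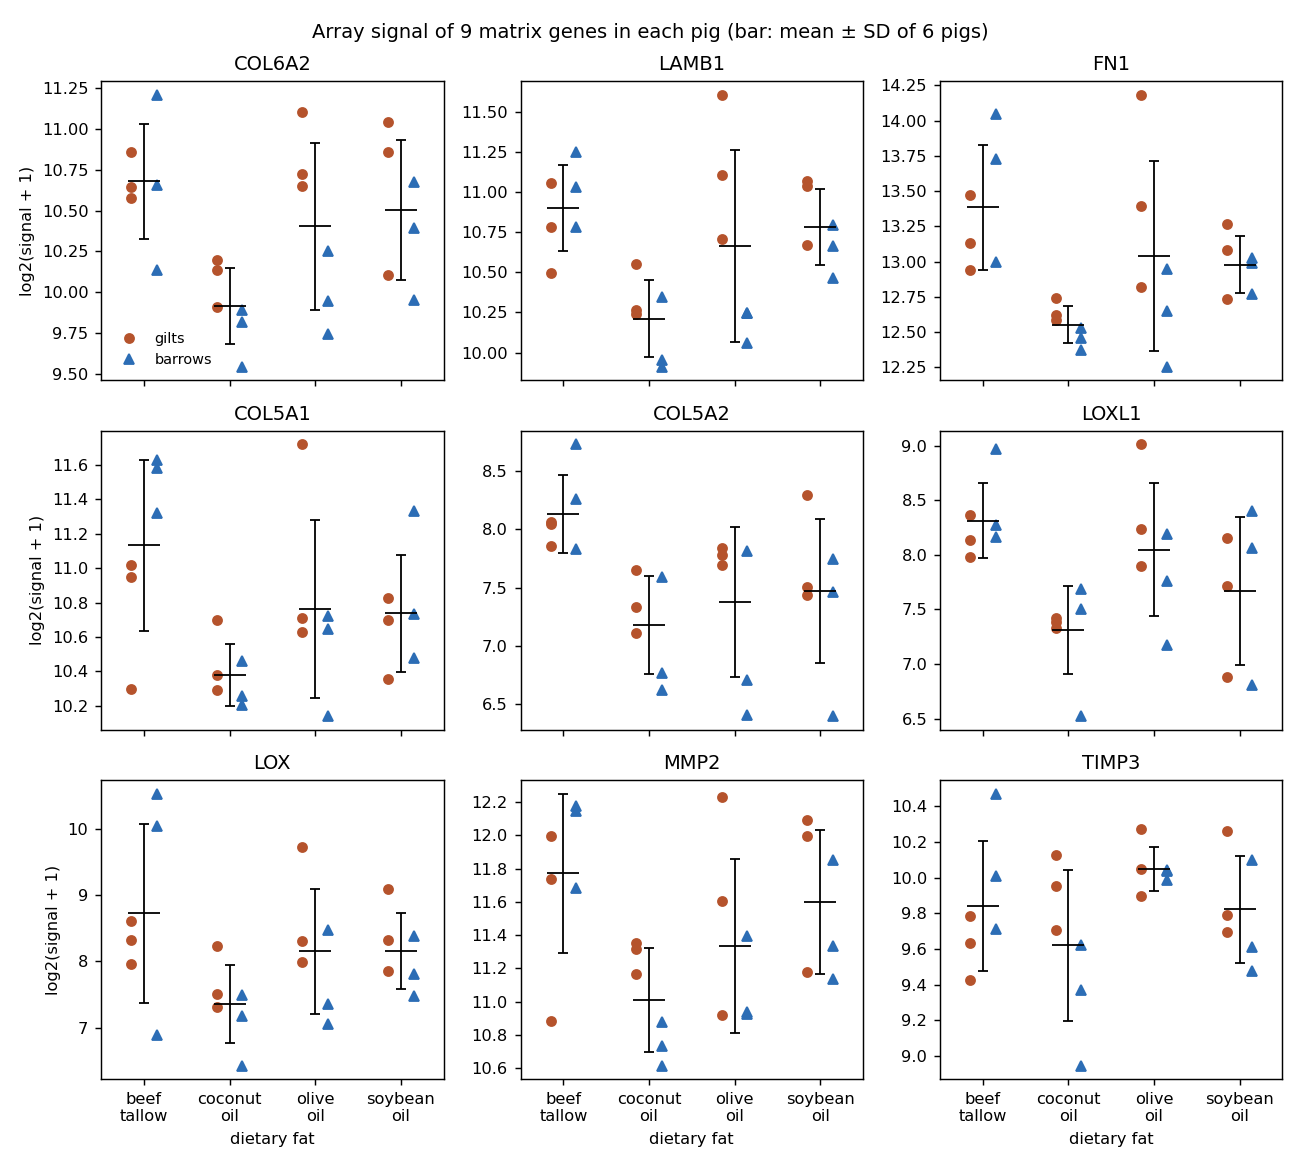
Signal on the log2 scale (y axis, log2 of signal + 1) of 9 members in each of the 24 pigs, by dietary fat (x axis), gilts as circles and barrows as triangles, with black bars for the mean ± SD of 6 pigs. In FN1, COL5A2 and LOXL1 the 6 coconut oil pigs lie below all 6 beef tallow pigs, while LOX spreads widely among the beef tallow barrows and in TIMP3 the coconut oil barrows, but not the gilts, lie below the beef tallow pigs of the same sex.

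Of the 11 members with more than 1 testable probe set, the 15 further probe sets gave 14 negative differences between coconut oil and beef tallow. Negative differences made up 55.4% of all tested probe sets. Of the 15, 1 was called, against 0.861% of all tested probe sets called lower. That one was the dimmest testable COL5A1 probe set (mean signal 115.3), at -1.24 (adjusted p = 0.043). The second brightest COL5A1 probe set (mean signal 887.2) gave -0.17 (adjusted p = 0.66).

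The 17 members that were too dim to test included the fibrillar collagens COL2A1 and COL11A1 of cartilage, COL10A1 of growth plates, COL7A1 of skin, 6 metalloproteinases (MMP1, MMP3, MMP7, MMP9, MMP13 and MMP20), ADAMTS6, ADAMTS20, TIMP4, and the integrin subunits ITGA2, ITGA6, ITGAM and ITGB7. Their mean on the log2 scale lay under the filter, which corresponds to a signal of 86.3. Without the filter 12 of the 17 differences between coconut oil and beef tallow were negative. Among all tested probe sets, which are brighter, 55.4% were. MMP9, the gelatinase of leukocytes, is named here after its values were seen because it went the other way: its signal was 45.0, 50.8 and 81.8 on coconut oil and 2.67, 18.7 and 44.9 on beef tallow. The groups only just missed overlapping, with the nearest pigs at 44.91 on beef tallow and 45.05 on coconut oil. Among all tested probe sets, which are brighter, 0.5% had every coconut oil pig above every beef tallow pig. All MMP9 values lay below the filter, and the difference of 1.72 had an unadjusted p of 0.0047 (limma, no filter).

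Asked within each sex, the comparison of coconut oil with beef tallow gave calls among the matrix genes in barrows and none in gilts. In barrows 4 of 40 members fell (LAMB1, FN1, COL5A1 and MMP2), against 1.72% of all tested probe sets called lower, and 18 of 40 were lower at an unadjusted p under 0.05, against 14.4%. In gilts no member was called by limma, as no probe set was (0% of all), and 2 of 40, COL6A2 and LOXL4, were lower at an unadjusted p under 0.05, against 2.62%. The median difference over the 40 members was -0.61 in barrows and -0.20 in gilts, where all tested probe sets gave -0.07 and -0.0049. All 3 coconut oil pigs lay below all 3 beef tallow pigs in 21 of 40 members in barrows and 7 of 40 in gilts. The same held for 17.7% and 6.19% of all tested probe sets.

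Each of the 4 genes called in barrows separated the 3 barrows of each fat. MMP2 signal was 1569, 1702 and 1880 in coconut oil barrows and 3289, 4533 and 4630 in beef tallow barrows. It fell by 1.26 ± 0.32 (adjusted p = 0.044), while in gilts the difference was -0.26 ± 0.32. COL5A1 signal was 1179, 1221 and 1406 in coconut oil barrows and 2552, 3061 and 3166 in beef tallow barrows. It fell by 1.20 ± 0.28 (adjusted p = 0.036), against -0.30 ± 0.28 in gilts. FN1 signal was 5290, 5612 and 5912 in coconut oil barrows and 8160, 13548 and 16952 in beef tallow barrows. It fell by 1.14 ± 0.29 (adjusted p = 0.044), against -0.53 ± 0.29 in gilts. LAMB1 signal was 962.6, 992.1 and 1302 in coconut oil barrows and 1758, 2093 and 2429 in beef tallow barrows. It fell by 0.95 ± 0.21 (adjusted p = 0.036), against -0.43 ± 0.21 in gilts. The number called in barrows was 0 without any one of the coconut oil or beef tallow barrows 15, 16, 20, 21 or 23, and 10 without pig 24. Pigs outside this contrast enter the fit through the shared estimate of the spread, and the number was 2 without any one of pigs 1, 3, 4, 5, 6, 13, 14 or 18 and 9 without pig 12. For these fits the share of all probe sets called is not given here.

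The difference between the sexes was itself tested and passed for no member and no probe set in limma (0% of all). Barrows had the lower value of the difference in 34 of 40 members, against 56.9% of all tested probe sets. Of the 40, 4 were lower at an unadjusted p under 0.05, against 4.2% of all tested probe sets. These 4 were TIMP3, COL5A1, TIMP2 and MMP2. TIMP3 signal was 491.8, 660.9 and 786.4 in coconut oil barrows and 839.6, 1029 and 1419 in beef tallow barrows, but 834.4, 991.2 and 1119 in coconut oil gilts and 685.8, 792.5 and 882.9 in beef tallow gilts. The barrows of both fats did not overlap and the gilts did, with the higher values on coconut oil. The difference was -0.75 ± 0.22 in barrows and 0.32 ± 0.22 in gilts, and -1.07 ± 0.32 between the sexes (unadjusted p = 0.0030, adjusted p = 0.86). A difference between the sexes in the response to coconut oil was thus not shown for any matrix gene with 3 pigs per group.

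**Figure D3:**
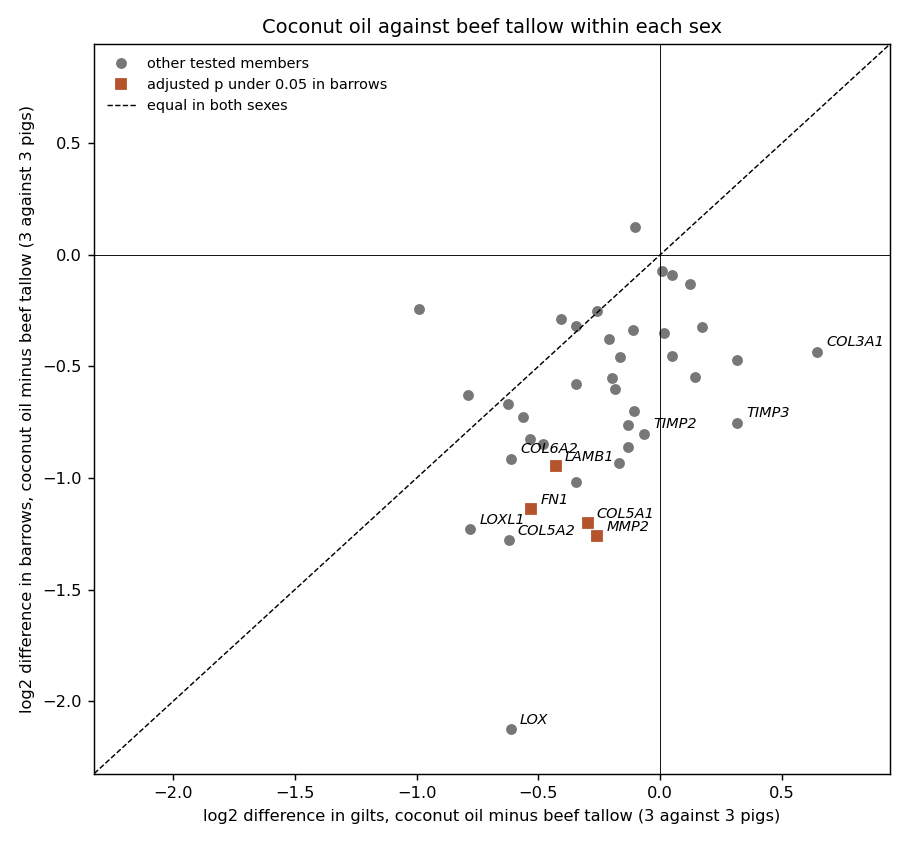
Log2 difference, coconut oil minus beef tallow, in gilts (x axis) and in barrows (y axis) for the 40 tested members, 3 against 3 pigs in each sex, with squares for the 4 genes that passed in barrows. Of the 40 points, 34 lie below the dashed line of equal differences, against 56.9% of all tested probe sets. TIMP3 and COL3A1 are positive in gilts and negative in barrows.

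Across the 4 fats, coconut oil had the lowest mean of the 4 fats in 36 of 40 members and the highest in 0, against 35.9% and 30.9% of all tested probe sets. Beef tallow had the highest mean in 22, olive oil in 11 and soybean oil in 7, against 32.9%, 15.2% and 21.0% of all tested probe sets. These comparisons share pigs, so their values are not independent of those above. Over the 4 fats together, limma's F test called no member and no probe set (0% of all). At an unadjusted p under 0.05 it took 14 of 40 members, against 11.6% of all tested probe sets.

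Against coconut oil, soybean oil gave no call in limma (0% of all), with 12 of 40 members higher at an unadjusted p under 0.05, against 9.1%, and a median of 0.35. LAMB1 signal on soybean oil was 1411, 1700 and 2148, above its coconut oil range but for an overlap between 1411 and 1498, and the difference was 0.57 ± 0.15 (adjusted p = 0.25). COL6A2 on soybean oil was 992.2, 1488 and 2104, overlapping the coconut oil pigs, and the difference was 0.59 ± 0.19 (adjusted p = 0.27). TIMP2 was the one member in which all 6 soybean oil pigs, from 2000 to 2558, lay above all 6 coconut oil pigs, which held for 0.847% of all tested probe sets. Its difference was 0.42 ± 0.16 (adjusted p = 0.31).

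Olive oil against coconut oil gave no call in limma either (0% of all), with 8 of 40 members higher at an unadjusted p under 0.05, against 5.58%, and a median of 0.34. Without pig 12 the number was 3 of 40 and the median 0.21. LAMB1 on olive oil was 1067, 1445 and 3116, the highest being pig 12, and the difference was 0.45 ± 0.15 (adjusted p = 0.55). TIMP3 on olive oil was 954, 1053 and 1238, overlapping the coconut oil pigs only at the top of their range of 491.8 to 1119, with a difference of 0.43 ± 0.16 (adjusted p = 0.55).

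Among the 3 fats other than coconut oil no member was called. Olive oil against beef tallow gave no call in limma (0% of all), 3 of 40 members lower at an unadjusted p under 0.05, against 4.43%, and a median of -0.11. The 3 were COL5A2 (-0.75 ± 0.26), LOXL4 (-0.70 ± 0.25) and SPARC (-0.29 ± 0.12). Soybean oil against beef tallow gave no call (0% of all), 2 of 40 lower, against 1.87%, and a median of -0.06. The 2 were COL5A2 (-0.66 ± 0.26) and LOXL1 (-0.64 ± 0.29). Soybean oil against olive oil gave no call (0% of all), 1 of 40 lower (ITGA5, -0.41 ± 0.20), against 0.924%, and a median of 0.02. Across all probe sets, unadjusted p-values under 0.05 numbered 928, 498 and 458 in these 3 comparisons, 1875 for soybean oil and 1275 for olive oil against coconut oil, 677 for coconut oil against beef tallow in gilts, 796 for the difference between the sexes and 1676 over the 4 fats.

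Between barrows and gilts over all fats, no member was called, against 4.77% of all tested probe sets. At an unadjusted p under 0.05, 10 of 40 members were lower in barrows, against 11.3%, and 0 of 40 were higher, against 9.83%. All 3 laminin chains were among the 10, with differences of -0.32 ± 0.11 (LAMB1), -0.25 ± 0.11 (LAMB2) and -0.20 ± 0.08 (LAMC1). The smallest p belonged to COL8A1, at -0.57 ± 0.19 (adjusted p = 0.080). COL6A2 gave -0.38 ± 0.13, COL4A2 -0.42 ± 0.15, ITGA5 -0.40 ± 0.14, ITGB5 -0.25 ± 0.10, TIMP1 -0.43 ± 0.18 and BGN -0.51 ± 0.21. COL8A1 signal in pig 12, at 512.3, was the highest of the 12 gilts, the next being 195.8, and without pig 12 the median of the 40 members moved from -0.16 to -0.09.

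The mean level of the 40 tested members was taken in each pig after subtracting each gene's mean over the 24 pigs. All of the coconut oil pigs lay below the overall mean by this measure. They ran from -0.41 to -0.15 on the log2 scale, beef tallow pigs from -0.24 to 0.48, olive oil pigs from -0.27 to 0.76 and soybean oil pigs from -0.24 to 0.24. Every group but coconut oil thus held pigs both above and below the overall mean. Pig 12, at 0.76, was the highest of all 24 pigs in 24 of the 40 members. Pig 2, a beef tallow gilt at -0.24, lay within the coconut oil range. So did pig 14, a soybean oil barrow at -0.238, and the olive oil barrows 17 and 18, at -0.271 and -0.235.

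**Figure D4:**
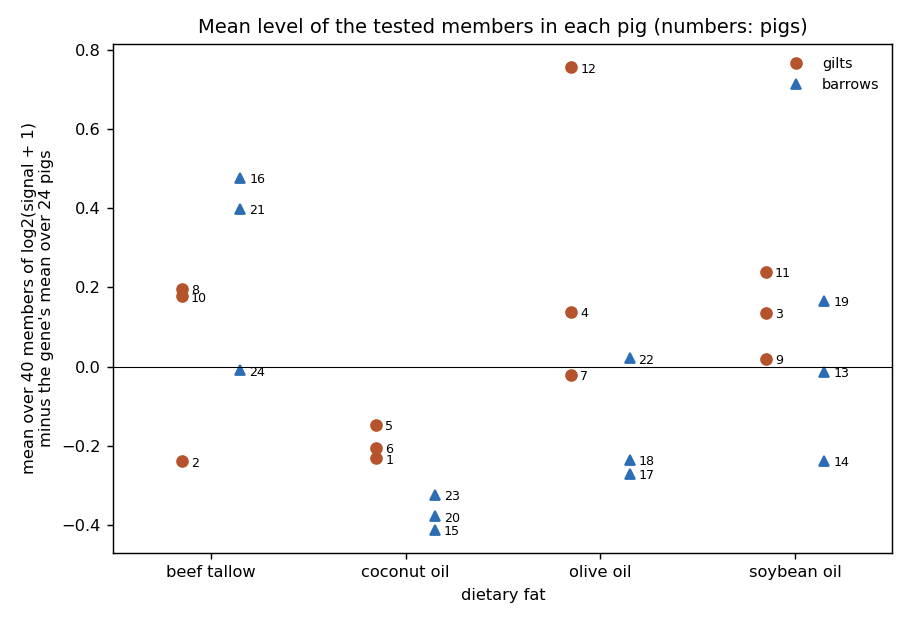
Mean over the 40 tested members of log2(signal + 1) minus each gene's mean over 24 pigs (y axis), 1 point per pig with its number, by dietary fat (x axis), gilts as circles and barrows as triangles. The 6 coconut oil pigs lie between -0.41 and -0.15, pig 12 stands highest at 0.76, and pig 2 is the one beef tallow pig inside the coconut oil range. Pig 14 (soybean oil) and pigs 17 and 18 (olive oil) also lie inside it.

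The matrix genes also varied together from pig to pig inside the groups. After the mean of each of the 8 groups was taken out, the median Pearson correlation between pairs of the 40 members over the 24 pigs was 0.32, against 0.003 between all 5345 tested genes with 1 symbol. It was over 0.5 in 25.5% of member pairs, against 4.55% of all pairs. These are descriptions with no test, since in each pig all genes were read from the same array and the same piece of muscle. Pig 12, the highest of all 24 pigs in 24 of the 40 members, was included. Correlations without pig 12 are not given here. COL6A2 and COL6A3, chains of the same collagen VI molecule, correlated at 0.89, and COL4A2 with COL15A1 at 0.73. SPARC was most like MMP2 (0.76), COL6A3 (0.75), MMP14 (0.70), SERPINH1 (0.67) and COL6A2 (0.66), and COL3A1 was most like LAMB2 (0.57). FN1 had the highest median correlation with the other members, 0.54. COL17A1, ITGA2B, PLOD1 and melusin were the members whose median correlation with the others was negative, from -0.23 to -0.05.

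**Figure D5:**
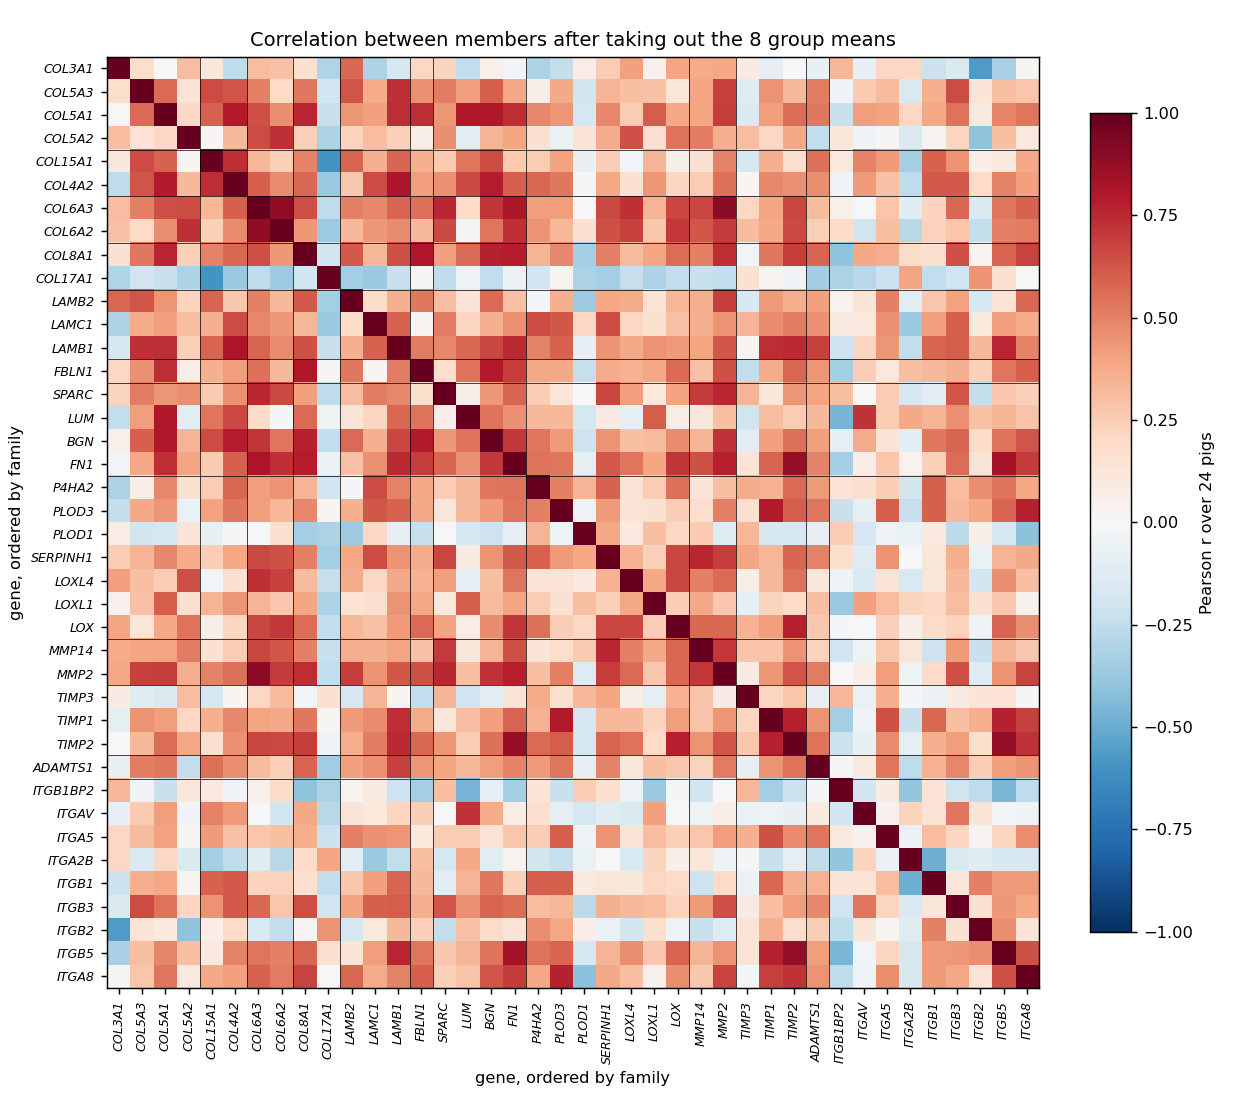
Pearson correlation over 24 pigs between the 40 tested members (both axes, in the same order by family, black lines between families) after the 8 group means were taken out, red for positive and blue for negative. Most of the map is red, with COL6A2 and COL6A3 at 0.89, while COL17A1, ITGA2B, PLOD1 and ITGB1BP2 form pale or blue lines.

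Other matrix genes that the naming rule leaves out lay lower on coconut oil too. The list of 30 was chosen with earlier results of these data known and read in the same pigs, so it is no independent support. Of the 30, 18 were measured and tested. All 18 were lower on coconut oil than on beef tallow, against 55.4% of all tested probe sets. Past the threshold were 5 of the 18, against 0.861% of all tested probe sets called lower. The median difference of the 18 was -0.92, against -0.04 over all tested probe sets. The 5 that fell were decorin (DCN, by 0.71 ± 0.17), asporin (ASPN, by 1.19 ± 0.27), nidogen 2 (NID2, by 0.96 ± 0.20), fibrillin 1 (FBN1, by 0.69 ± 0.15) and periostin (POSTN, by 1.60 ± 0.37). Decorin and asporin are small proteoglycans of collagen fibrils, nidogen links laminin to collagen IV, fibrillin forms microfibrils, and periostin is a secreted matrix protein of fibroblasts. Of 21 genes of the TGF-beta pathway, which drives matrix synthesis, 8 were tested and none was called in limma. The median of the 8 was -0.25. SMAD4, the shared signal carrier of the pathway, was the only one with an unadjusted p under 0.05, at 0.26 ± 0.12 (SE).

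Marker genes of some other cell types moved with the matrix genes, in lists also chosen with earlier results of these data known. Of all tested probe sets, 55.4% were lower on coconut oil than on beef tallow and 0.861% were called lower. Of 5 tested fibroblast markers outside the rule, of 9 listed, all 5 were lower on coconut oil and 3 fell: THY1 by 0.95 ± 0.18, FAP by 1.00 ± 0.23 and DCN, which is also in the matrix list together with DPT. Their summed signal ran from 15839 to 23890 in coconut oil pigs and from 21065 to 49978 in beef tallow pigs. Of 6 tested adipocyte markers, of 8 listed, all 6 were lower and 1 fell (FABP4, the fatty acid carrier of fat cells, by 1.09 ± 0.27), and ADIPOQ gave -1.91 ± 0.58 (adjusted p = 0.081). The adipocyte sum ran from 8687 to 14234 on coconut oil and from 10576 to 41934 on beef tallow, the lowest beef tallow value being that of pig 2. In barrows it ran from 8687 to 9074 on coconut oil and from 19545 to 30921 on beef tallow, and in gilts from 11289 to 14234 and from 10576 to 41934. The part of these cell types in the matrix result was not tested.

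Markers of the remaining cell types gave no call in limma. The median difference between coconut oil and beef tallow was 0.07 over 9 muscle fibre markers, -0.23 over 7 endothelial markers, -0.41 over 7 leukocyte markers, -0.07 over 4 smooth muscle and pericyte markers and -0.20 over 2 erythrocyte markers. Of these markers, only CLDN5, an endothelial junction protein, had an unadjusted p under 0.05, at -0.61 ± 0.28. The muscle fibre sum ran from 300034 to 396792 on coconut oil and from 279697 to 363919 on beef tallow.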

How the data were processed

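Total RNA from 24 muscles, 1 pig each, was biotin-labelled and hybridised to 1-colour Affymetrix arrays, per the labels. The deposited values are intensity (signal) per probe set on a linear scale, already scaled by the authors so that trimmed means (2% trimmed at each end) agree; the summarisation software and its settings are not given in the sources used here. Of 24123 probe sets 124 controls were left out. Of the other 23999, 10069 carried 1 gene symbol in the platform annotation, 198 several and 13732 none, and genes were named from 1 symbol only. All 57 members matched a RefSeq gene of the same symbol.

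Signals were taken as log2(signal + 1). Probe sets with a mean at or above the 40th percentile (signal 86.3) were tested, 14399 in all. limma 3.58.1 in R 4.3.3 fitted the 8 groups of fat and sex with lmFit and eBayes, and p-values were Benjamini-Hochberg adjusted over all tested probe sets. The difference of a fat pair was the mean over both sexes. The scripts were tested on simulated data. Pigs are the replicates, and their number limits the precision. The pig numbers in the labels are unique and pair no samples.

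The members and lists were chosen with earlier results of these data known. Signal values by pig or group are given for the members with the 15 smallest p-values of coconut oil against beef tallow, the 8 smallest of barrows against gilts, the 4 smallest of each other comparison and a list of well-known matrix genes. Alternatives were no filter and a 60th percentile filter, quantile normalization, median centring, a pseudocount of 16, an additive model, a trended robust spread, array weights, the compared groups alone, 1 probe set per gene, second probe sets, leaving out the 3 least correlated arrays, and leaving out each pig. Array positions and scan dates were not used here, so no batch was tested.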

Additional observations from a re-analysis of the deposited data

Results flagged for a closer look

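In 6 cases a value stood far from the other 5 pigs on the same fat: the gap to the nearest of the others, divided by the range of the 6, was over Dixon's 95% critical value. With 18 genes and 4 fats, 72 groups were looked at, and about 1 in 20 groups, or 3.6, would pass this mark by chance. On the log2(signal + 1) scale, pig 12, the olive oil gilt, was the highest olive oil pig in COL5A1 at 11.72, in TIMP2 at 11.82 and in TIMP1 at 11.39, where the other 5 had medians of 10.65, 10.85 and 9.93. Its array was among the 3 least correlated with the others. Pig 11, a soybean oil gilt, was the highest soybean oil pig in TIMP2 at 11.32, where the other 5 had a median of 10.97. Pig 15, a coconut oil barrow, was the lowest coconut oil pig in LOXL1 at 6.52, where the other 5 had a median of 7.42. Pig 2, a beef tallow gilt, was the lowest beef tallow pig in LUM at 11.59, where the other 5 had a median of 12.41.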

How the results depend on the processing

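The median difference of the 40 members between coconut oil and beef tallow kept its sign under each alternative and ran from -0.55 to -0.38 when 1 pig was left out. The count of called members did not hold: 3 became 0 with no filter, with median centring and with an additive model, 1 with quantile normalization, 7 with the compared groups alone and 16 with array weights, and 0 to 8 when 1 pig was left out. In barrows 4 became 0 with no filter, with the compared groups alone and without the 3 least correlated arrays, 1 with median centring, 2 with quantile normalization, 7 with the 60th percentile filter, and 0 to 10 when 1 pig was left out. Between barrows and gilts 0 became 4 with array weights and 0 to 3 when 1 pig was left out, and over the 4 fats 0 became 1 with array weights. The share of all probe sets called under each of these settings is not given here. The counts therefore do not show a change particular to the matrix genes. Second probe sets could be tested for 11 members and gave 0 calls, and 1 in barrows. Of LAMB1, FN1 and COL6A2, only LAMB1 had one that could be tested, so these counts do not bear on FN1 and COL6A2. The LAMB1, FN1 and COL6A2 calls were lost in 11, 20 and 17 of the 24 fits that left out 1 pig, with adjusted p-values up to 0.13, 0.14 and 0.13.

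Signs turned in coconut oil against beef tallow for 8 genes near zero. COL3A1 gave -0.21 with array weights and -0.13 to 0.40 when 1 pig was left out. ITGAV gave 0.11 with centring and -0.13 to 0.052 by pig. COL8A1 gave 0.059 with quantile normalization, 0.048 with centring and -0.22 to 0.016 by pig. ITGA5 gave 0.054 with quantile normalization, 0.092 with centring, 0.077 without the 3 arrays and -0.15 to 0.081 by pig. P4HA2 gave 0.0090 with quantile normalization, 0.12 with centring, 0.073 with array weights, 0.11 without the 3 arrays, 0.18 with its second probe set and -0.12 to 0.11 by pig. ITGB1BP2 gave -0.036 with quantile normalization, -0.067 with array weights, -0.063 with its second probe set and -0.062 to 0.13 by pig. ITGA2B gave 0.066 with quantile normalization, 0.050 with centring and -0.28 to 0.30 by pig, and ADAMTS1 -0.43 to 0.012 by pig. The cause was not tested. No paired analysis was possible because the pig numbers are unique across groups. Dim probe sets carry the least certain values.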
